A study of Mus musculus with 15 samples.

Results

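The genes described here are the histone cluster genes of the mouse, taken as every row of the deposited expression table whose symbol starts with Hist1h, Hist2h, Hist3h or Hist4h. The rule uses names and no measured value. It gave 70 of the 44827 genes in the table: 6 genes of the linker histone H1, 20 of H2A, 19 of H2B, 12 of H3 and 13 of H4. Of the 70, 3 are annotated as pseudogenes. Most of them were barely represented. The mean over the 15 libraries was below 1 CPM (counts per 1000000 reads of the scaled library size) for 45 of the 70 genes, and 35 of the 70 were below 1 CPM in every library. Of the 31 genes that could be tested, 19 had their lowest value of all libraries in library 1 of the 3 labelled Tet2-/-. The test called 27 of the 31 higher in Tet2-/- Nras(G12D) double mutant cells than in Tet2-/- cells, against 20.1% of all 13927 tested genes.

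Histones are the proteins around which DNA is wound. H2A, H2B, H3 and H4 form the core of the nucleosome, and H1 binds the linker DNA between cores. The genes of these clusters are the classic replication-dependent histone genes: they are switched on together as cells enter S phase, through the coactivator NPAT, and supply histones for newly made DNA. Their mRNAs are the known exception to polyadenylation. They end in a short stem-loop that is bound by the protein SLBP and cut by a dedicated machinery, which includes the U7 small nuclear RNA. Some members are also known to make polyadenylated transcripts that run past the stem-loop, mostly in cells that leave the cycle. A library made by selecting polyadenylated RNA is therefore thought to carry mainly those longer forms, which was not tested here. The values given here are levels in such libraries, not total histone mRNA.

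RNA was taken from bone marrow cells sorted as LSK, that is negative for lineage markers and positive for Sca1 and cKit, a fraction rich in blood stem and early progenitor cells. The labels give 5 groups of 3 libraries, all from C57BL/6 mice: wild type (WT), Tet2-/- (without the DNA demethylating enzyme TET2), Nras(G12D) (with an activated form of the RAS protein NRAS), Tet2-/- Nras(G12D) animals without leukemia (the double mutant) and leukemic Tet2-/- Nras(G12D) animals (the leukemic double mutant). The mutations were conditional and specific to haematopoietic tissue, per the design text, and the driver of the recombinase is not given in the sources used here. Mice aged 6 months are mentioned in the design text, for the methylome arm only. The leukemic libraries alone carry the label BMT, whose meaning is not given in the sources used here and whose effect cannot be told apart from leukemia. Whether the 3 libraries of each group are 3 animals is not stated in the labels. The p-values therefore measure only library-to-library spread, part of which may be technical.

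Total counts per library ran from 22733189 to 43562909, and 3 counts, the limit that a count of 0 allows for counting error, corresponded to 0.0775 to 0.127 CPM. Kit and Ly6a, which encode the sorted cKit and Sca1, were present in every library, at 375 to 2910 CPM and 59.3 to 198 CPM. The summed CPM of 3 stromal markers stayed between 0.127 and 1.68 in all libraries, and that of 3 T cell markers between 0.961 and 10.8. The sum of 5 erythroid markers was 27.3 to 38.3 CPM in WT and 6.7 to 8.45 in Tet2-/-. It was 18.8 to 69.0 in Nras(G12D), 9.09 to 24.4 in the double mutant and 81.5 to 1382 in leukemia. The B cell marker Ms4a1 stayed at or below 2.401 CPM, while the immunoglobulin gene Ighm was at 3698 to 9384 CPM in WT, 523 to 2095 in Tet2-/-, 693 to 1913 in Nras(G12D), 998 to 1551 in the double mutant and 1991 to 6340 in leukemia. Tet2 counts over the whole gene did not separate the groups: they were 35.9, 59.8 and 49.3 CPM in the Tet2-/- libraries and 65.2, 50.7 and 61.02 CPM in WT. The labels do not say which exons were deleted. These counts thus do not check the label, and the groups are named as labelled. Nras was at 145 to 282 CPM in all libraries. Tet2-/- libraries 1 and 3 also stood apart in base composition. Across 13604 genes the Spearman correlation between a library's deviation from the gene means and the GC content of the gene was -0.274 in Tet2-/- 1 and -0.337 in Tet2-/- 3, against -0.0714 in Tet2-/- 2 and -0.132 to 0.22 in the other 12 libraries.

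The stem-loop that marks these mRNAs could be read from the annotated transcripts (GENCODE M21, mouse build GRCm38). The sequence searched, on the strand of the transcript, was GG, any 2 bases, CTT, any base, T, any base, AG, any 2 bases and CC, which is a stem of 6 bases, a loop of 4 and the 6 bases of the second stem strand. It was present in the longest transcript of 45 of the 70 members (64.3%) and of 0.412% of the 21857 protein-coding genes that are not members. The 3 annotated pseudogenes among the members did not have it. By class it was found in 4 of 6 H1, 11 of 20 H2A, 9 of 19 H2B, 9 of 12 H3 and 12 of 13 H4 genes. The examples below show 1 gene of each class with large values in the results and a second H4 gene, Hist2h4, that changed most among H4 genes in leukemia. They are written 5′ to 3′ as DNA, with the 16 bases of the stem-loop in capitals and up to 5 flanking bases.
Hist1h1c: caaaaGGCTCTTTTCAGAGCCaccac
Hist1h2ae: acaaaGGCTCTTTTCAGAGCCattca
Hist1h2bg: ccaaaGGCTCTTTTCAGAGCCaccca
Hist1h3e: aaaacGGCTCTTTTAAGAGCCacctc
Hist1h4d: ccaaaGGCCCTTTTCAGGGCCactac
Hist2h4: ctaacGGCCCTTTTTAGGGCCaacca
The form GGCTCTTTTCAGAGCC was the most frequent, in 25 members of the classes H1, H2A, H2B and H3, and no H4 gene carried it. The H4 genes most often had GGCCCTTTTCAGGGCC, in 7 of the 12 with a stem-loop. In 23 members the annotated transcript ran 100 or more bases past the stem-loop, in 22 it ended sooner, and in 25 no stem-loop was found in the annotated transcript. The median annotated length of these sets was 1249, 483.5 and 405 bases, and a stem-loop beyond an annotated end would be missed. The median of the mean CPM per kb of transcript was 2.46 in the first set, 0.740 in the second and 0.385 in the third, with wide overlap (0 to 52.4, 0 to 5.20 and 0 to 77.4 CPM per kb) and no test of the difference. The median share of 50-base words also found in another gene was 24.6%, 59.9% and 71.5% in these sets. The 100-base border was chosen after the values had been seen.

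The 70 genes lie in 4 places. On chromosome 13, 56 members form the Hist1 cluster, 55 of them in 3 stretches (GRCm38 chr13:21715763-21837530 with 19 genes, chr13:22035164-22043676 with 5 and chr13:23531050-23934851 with 31). The Hist2 cluster on chromosome 3 (96219865 to 96270132) has 10, chromosome 11 has 3 and Hist4h4 stands alone on chromosome 6. Tet2 (from 133463679) and Nras (from 103058285) lie on chromosome 3 too, so Hist2 genes are on the chromosome of both mutated loci. Near-identical coding sequences limit what can be read from single members. A gene's share of 50-base words also found in another gene correlated with its mean CPM per kb at a Spearman's rho of -0.553 across the 70 genes, which is a description across genes that share sequence. The 6 members with 0 counts in every library include Hist2h2aa1, Hist2h2aa2, Hist2h3c1, Hist2h3b and Hist2h2bb, which share 53.6% to 100% of their words with other genes, and Hist1h2aa, a testis form that shares 2.35%. The sources used here do not give how reads that fit several copies were assigned, and a low value of a copied gene is uncertain.

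Low values were unevenly spread over the classes. The mean was below 1 CPM for 1 of 6 H1 genes, 16 of 20 H2A, 12 of 19 H2B, 9 of 12 H3 and 7 of 13 H4. These counts include the annotated pseudogenes, 2 of H2A (Hist1h2al and Hist1h2aj) and 1 of H2B (Hist3h2bb-ps). The H1 gene below 1 CPM was Hist1h1t, the testis linker histone, at a mean of 0.0401 CPM. Hist1h2ba, the testis H2B, had a mean of 0.00478 CPM. With CPM per total count, without the authors' scaling factor, 44 genes were below 1 CPM. The filter for testing, a deposited value of at least 1 CPM in at least 3 libraries, left 31 genes: 5 H1, 5 H2A, 9 H2B, 6 H3 and 6 H4. Only 12 of the 31 were at or above 1 CPM in every library. Hist1h3f, Hist1h3i, Hist1h3c and Hist1h2bk would not have passed without the double mutant libraries, so these 4 were tested in part because they were high there. Hist1h3i would also not have passed without the Nras(G12D) libraries, and Hist1h3c not without the leukemic ones.

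Per kb of transcript, the gene with the highest level was Hist1h1b (H1.5), at a mean of 77.4 CPM per kb over the 15 libraries. Hist1h4d, an H4 gene, followed at 52.4, then Hist1h1c (H1.2) at 25.5, Hist1h2ae at 24.2, Hist1h1e (H1.4) at 23.7 and Hist1h2bc at 18.1. This order depends on the annotated length, which was 743 bases for Hist1h1b and 1138 for Hist1h4d. By mean CPM Hist1h4d was first, at 59.6 against 57.5 for Hist1h1b. The H3 gene with the highest level, Hist1h3e, reached 4.98 CPM per kb. As a share of the summed CPM of all members, H1 genes held 37.2% to 45.7% in WT and 46.8% to 58.3% in the leukemic double mutant, whereas H3 genes never held more than 6.55%.

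Summed over a class, the mean was lowest in Tet2-/- and highest in the double mutant for H1, H2A and H3. The summed CPM of the 6 H1 genes was 39.8, 101 and 84.0 in the Tet2-/- libraries 1 to 3, 99.0, 165 and 113 in WT, and 246, 204 and 237 in the double mutant. The double mutant libraries lay above all WT and all Tet2-/- libraries in H1. For H2A the sums were 9.01, 19.2 and 7.43 in Tet2-/-, 21.7, 34.3 and 20.7 in WT and 76.4, 99.9 and 91.6 in the double mutant. For H3 they were 0.382, 3.44 and 0.606 in Tet2-/-, 2.21, 8.73 and 5.24 in WT and 19.3, 29.6 and 35.1 in the double mutant. In both classes the double mutant lay above all WT and Tet2-/- libraries, and Tet2-/- library 2 was nearer to WT than libraries 1 and 3. H2B sums were 56.1 ± 10.1 in Tet2-/-, 59.7 ± 6.43 in WT, 99.2 ± 8.54 in the double mutant and 49.99 ± 6.97 in the leukemic double mutant (SD, n = 3), so that leukemia had the lowest mean, and the double mutant libraries, at 89.97 to 106.8, lay above all WT and Tet2-/- libraries, the highest of which was at 67.4. H4 sums overlapped, at 45.5 ± 29.5 in Tet2-/-, 77.5 ± 14.7 in WT, and 102 ± 32.2 and 101.2 ± 16.5 for Nras(G12D) and the double mutant (SD, n = 3). Over all 70 genes the sum was 190 ± 73.8 CPM in Tet2-/-, 294 ± 58.9 in WT and 396 ± 65.5 in Nras(G12D), and the double mutant and its leukemic form had 547 ± 31.02 and 415 ± 89.1 (SD, n = 3). A sum is set by its few most abundant members, and a median over the 31 tested genes gave other ratios for some pairs of groups. The leukemic double mutant was 1.41 times WT by the sum and 0.869 times WT by the median.

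**Figure D1:**
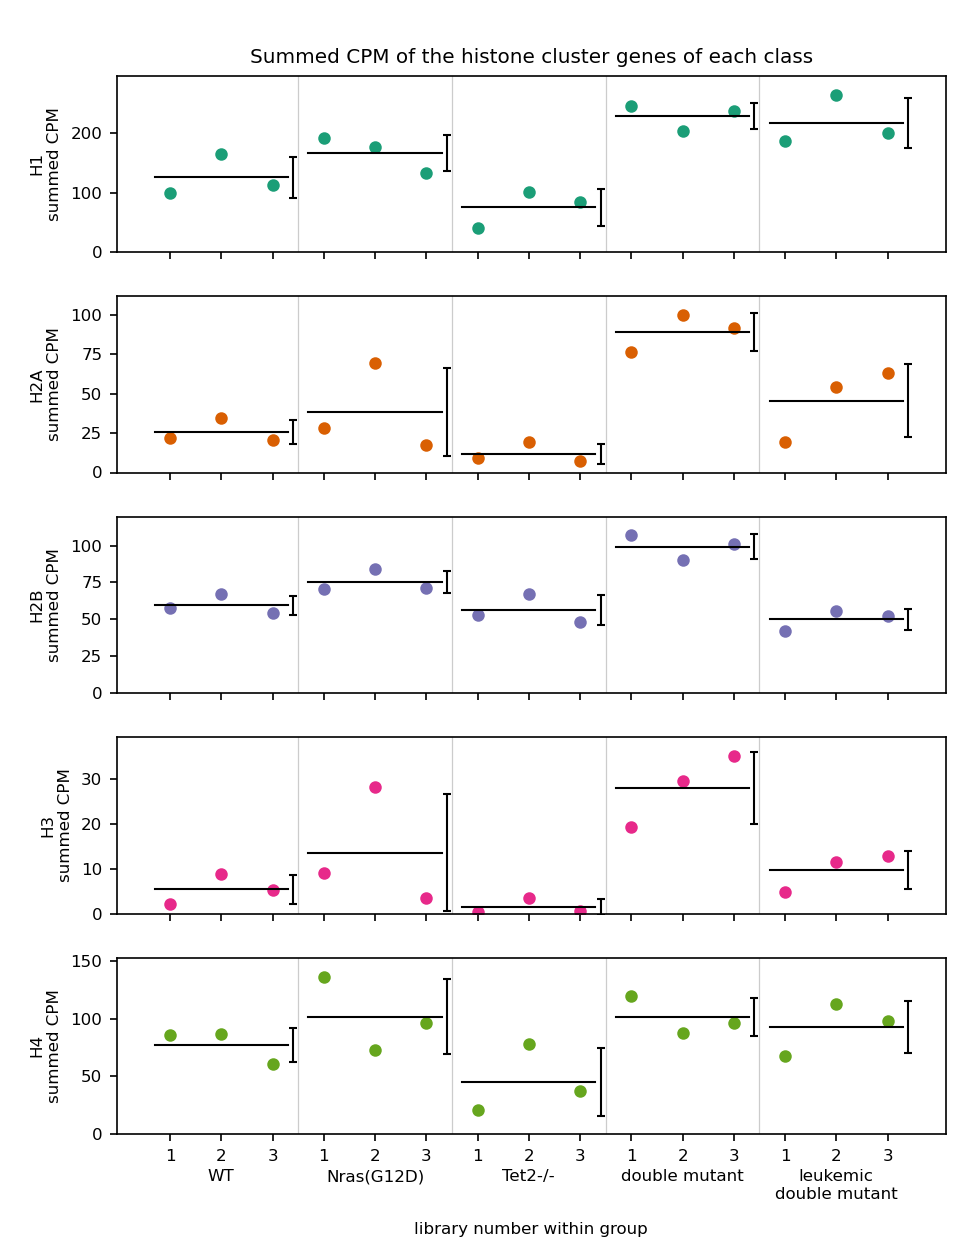
Summed CPM (y axis, from 0) of the histone cluster genes of each class in the 15 libraries (points, x axis by group and library number), with the group mean as a line and its SD over 3 libraries as a bar. For H1, H2A, H2B and H3 the 3 double mutant libraries lie above every WT and every Tet2-/- library, while H4 sums of the groups overlap.

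The study's title asks how TET2 loss and mutant NRAS act together. Comparisons were made of the 4 mutant groups with WT, of the double mutant with either single mutant and of leukemic with non-leukemic cells, with limma on the deposited log2 values of all 13927 tested genes. The comparisons share libraries, so they are not independent of each other. A gene is called changed where the Benjamini-Hochberg adjusted p over all tested genes was below 0.05. Over all 5 groups, 25 of the 31 tested members differed by the F test, against 44% of all tested genes.

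**Figure D2:**
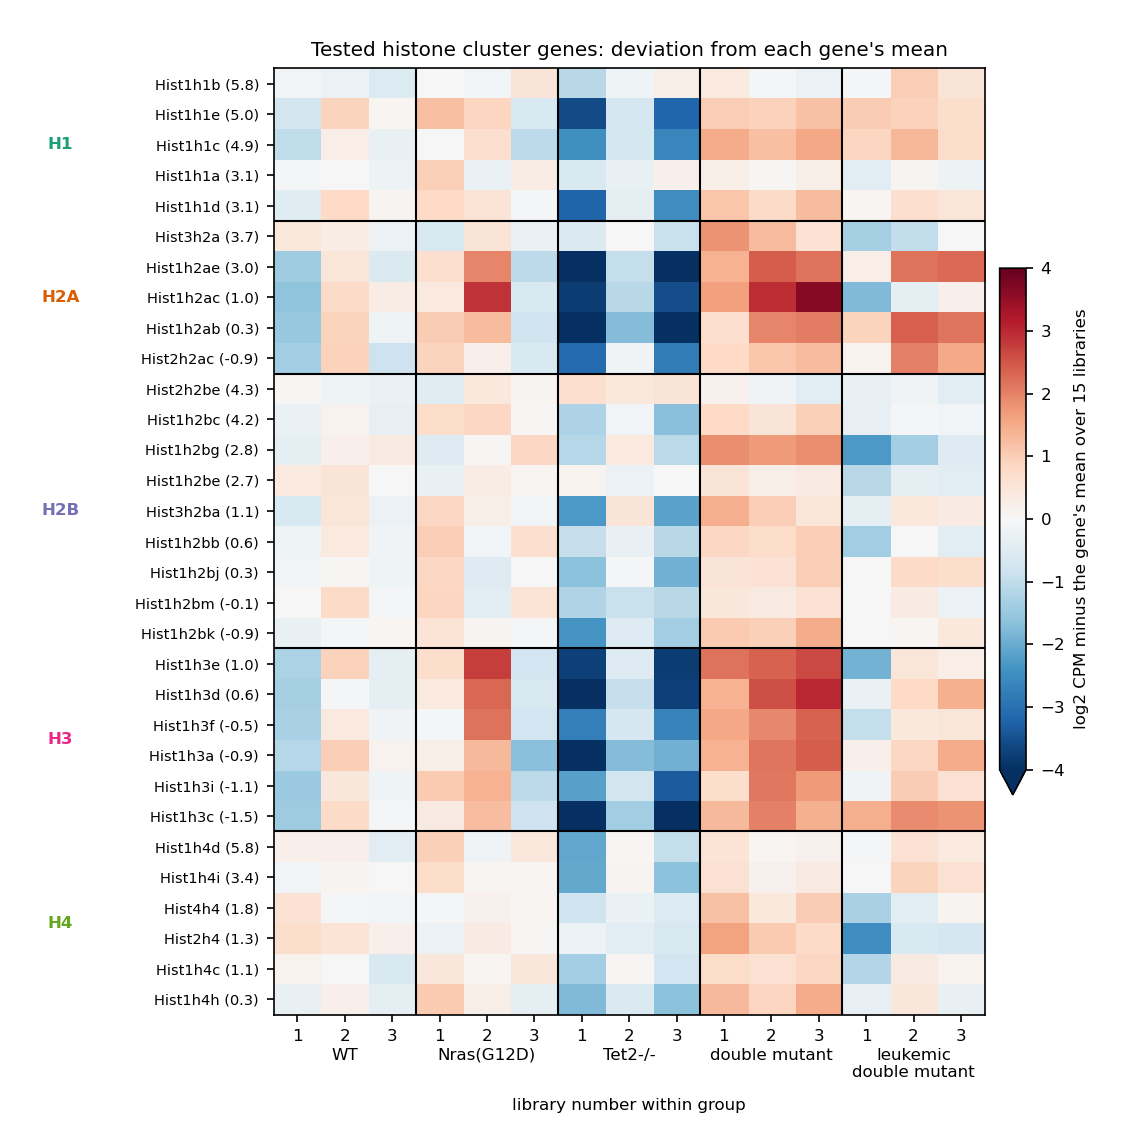
Deposited log2 CPM of the 31 tested members minus the mean of each gene over the 15 libraries (colour, from -4 to 4), by class in rows and by group and library number in columns, with the gene's mean log2 CPM in brackets. Most H1, H2A and H3 rows are lowest in Tet2-/- libraries 1 and 3, and Tet2-/- library 2 is closer to WT.

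The comparison of the double mutant with Tet2-/- held the most calls. Of 31 tested members 27 rose and none fell, against 28.7% of all 13927 genes that were called, 20.1% that rose and 8.57% that fell. The median log2 difference of the members was 2.41, and that of all tested genes was 0.0035. Of the 27 members whose passage did not depend on a single group 23 rose, and of the 12 at or above 1 CPM in every library 8 rose. All 5 H2A genes, all 6 H3 genes and all 6 H4 genes were called, as were 3 of 5 H1 and 7 of 9 H2B genes. The size differed between classes, with median log2 differences of 5.14 for H2A, 4.84 for H3, 3.06 for H1, 1.77 for H2B and 1.498 for H4. Over the members whose passage did not depend on a single group, 3 of 3 H3 genes (median 5.07) and 6 of 8 H2B genes (median 1.70) were called. No test compared the classes with each other.

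Among linker histones, Hist1h1c was at 5.31, 17.7 and 4.69 CPM in the Tet2-/- libraries 1 to 3, at 14.4, 34.7 and 23.5 CPM in WT and at 81.5, 66.7 and 84.9 CPM in the double mutant. Every double mutant library was above every WT and Tet2-/- library. The log2 difference between the double mutant and Tet2-/- was 3.34 ± 0.50 (SE), with an adjusted p of 0.00472. Hist1h1e was at 2.76, 20.9 and 3.67 CPM in Tet2-/- and at 65.1, 62.1 and 75.1 CPM in the double mutant, a log2 difference of 3.49 ± 0.64. Hist1h1d (H1.3) rose by 3.06 ± 0.56 on the log2 scale, from 0.892, 6.64 and 1.5 CPM to 18.1, 14.5 and 20.3 CPM. The other tested linker histones did not pass the test. Hist1h1b had 25.1, 48.6 and 64.0 CPM in Tet2-/-, against 71.0, 52.0 and 46.8 CPM in the double mutant, with an adjusted p of 0.416, and Hist1h1a (H1.1) was at 7.59 ± 2.23 and 9.72 ± 0.74 CPM (SD, n = 3; adjusted p of 0.358 by limma). In both, the groups overlapped. Neither has a stem-loop in its annotated transcript, whereas the 3 that rose have one, followed by 840 or more annotated bases. The annotated transcripts of Hist1h1b and Hist1h1a are 743 and 741 bases long, and a stem-loop beyond an annotated end would be missed. Over all classes, 2 of the 5 tested members without an annotated stem-loop rose, against 20.1% of all tested genes.

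H2A genes showed the widest range. Hist1h2ae was at 0.170, 4.14 and 0.351 CPM in the Tet2-/- libraries, at 2.97, 11.2 and 5.27 CPM in WT and at 20.96, 43.2 and 35.95 CPM in the double mutant. Its log2 difference between double mutant and Tet2-/- was 5.59 ± 0.998 (adjusted p of 0.00472). Hist1h2ac went from 0.127, 0.936 and 0.160 CPM to 6.40, 16.01 and 25.6 CPM, a log2 difference of 5.57 ± 0.96, and Hist1h2ab from 0.0425, 0.362 and 0.0319 CPM to 1.97, 4.88 and 5.13 CPM, a log2 difference of 5.14 ± 0.84. In Tet2-/- libraries 1 and 3 these H2A values rest on few reads, so the fitted differences depend on the 0.5 count added by the authors. Hist3h2a on chromosome 11 was less far apart, at 8.58, 13.1 and 6.83 CPM in Tet2-/- and 44.2, 31.1 and 19.2 CPM in the double mutant. It overlaps Trim17 on the same strand, so reads of the 2 genes may be mixed. Hist2h2ac, a Hist2 gene near 1 CPM, had a log2 difference of 3.07 ± 0.81 (adjusted p of 0.0151).

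The 6 tested H3 genes rose, from levels close to 0 in Tet2-/-. Hist1h3f, Hist1h3i and Hist1h3c would not have been tested without the double mutant libraries, so that their direction was partly set by the filter. Hist1h3e was at 0.127, 1.36 and 0.128 CPM in Tet2-/-, at 0.80, 3.76 and 1.54 CPM in WT and at 8.92, 10.1 and 12.3 CPM in the double mutant, with a log2 difference of 5.07 ± 0.98 between the double mutant and Tet2-/-. Hist1h3d was at 0.0425, 0.755 and 0.0957 CPM in Tet2-/- and 3.84, 8.74 and 11.9 CPM in the double mutant. In both genes all double mutant libraries were above all WT libraries. Hist1h3a and Hist1h3f reached 2.25 ± 0.76 and 2.77 ± 0.77 CPM in the double mutant (SD, n = 3). Hist1h3c had 0 counts in Tet2-/- libraries 1 and 3, 0.121 CPM in library 2 and 0.865, 1.45 and 0.948 CPM in the double mutant. H3 genes share much of their sequence: 73.4% of the 50-base words of Hist1h3e and 87.6% of those of Hist1h3i occur in another gene.

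H2B and H4 genes changed less, and the H2B class held the exception to the direction. Hist1h2bc was at 7.90, 17.4 and 5.87 CPM in Tet2-/- and at 32.8, 26.9 and 36.5 CPM in the double mutant, a log2 difference of 1.77 ± 0.35 (adjusted p of 0.00492). Hist1h2bg went from 3.06, 8.85 and 3.22 CPM to 24.4, 21.9 and 24.7 CPM, with non-overlapping groups and a log2 difference of 2.41 ± 0.49. Hist3h2ba had a log2 difference of 2.28 ± 0.62, with groups that overlapped. Hist2h2be, known for its polyadenylated mRNA in cells outside the cycle, was the only tested member with a lower mean log2 value in the double mutant than in Tet2-/-. The Tet2-/- libraries had 32.2, 27.1 and 28.9 CPM, the double mutant 22.9, 18.5 and 15.1 CPM and WT 20.96, 17.8 and 17.02 CPM. The 3 Tet2-/- libraries were above all WT and double mutant libraries, but the log2 difference of -0.66 ± 0.26 had an adjusted p of 0.0651. It was called lower after GC content and length correction (-0.73, adjusted p of 0.0371) and after quantile normalization (-1.16, adjusted p of 0.0117). Hist1h2be was at 6.44 ± 0.78 and 8.51 ± 0.83 CPM (SD, n = 3) and did not pass the test. Its annotated span overlaps that of Hist1h1e on the same strand.

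Among H4 genes, Hist1h4d, the one with the highest level per kb, was at 12.9, 57.2 and 27.8 CPM in Tet2-/- and 78.8, 57.7 and 61.6 CPM in the double mutant. Tet2-/- library 2 was within 1 CPM of the lowest double mutant library, and the log2 difference of 1.26 ± 0.43 had an adjusted p of 0.0436. The call of Hist1h4d was kept in 11 alternatives of the processing and lost in 15. Hist1h4i was at 2.51, 11.4 and 3.38 CPM against 15.9, 11.97 and 13.6 CPM, with a log2 difference of 1.58 ± 0.45. Hist4h4 was at 1.91, 2.78 and 2.297 CPM against 7.64, 4.55 and 6.81 CPM, and Hist2h4 at 1.997, 1.78 and 1.5 CPM against 7.30, 4.88 and 4.07 CPM. In these 2 genes all 3 Tet2-/- libraries were low, library 2 included, and their log2 differences were 1.42 ± 0.37 and 1.58 ± 0.45.

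This comparison rests on Tet2-/- libraries 1 and 3. Tet2-/- 1 was the lowest of all 15 libraries for 19 of the 31 genes, leukemic library 1 for 6, Tet2-/- 3 for 5 and Nras(G12D) 1 for 1. Without Tet2-/- 1, or without Tet2-/- 3, 16 of the 31 members were called, all higher, against 8.57% and 10.8% of genes that were called higher. Without both, an alternative chosen after seeing the data that leaves 1 Tet2-/- library, none was called, as were only 3 of all 13927 genes, and the median log2 difference of the members was 1.39. After a correction of each library for GC content and length, 21 members rose and Hist2h2be fell, against 14.6% and 19.6% of genes, with a median log2 difference of 1.52 for the members and -0.27 for all genes. Of 6 LSK surface genes Kit fell in this comparison. The erythroid transcription factor Klf1 was at 0.467, 1.87 and 0.287 CPM in Tet2-/- and rose to 14.1, 15.8 and 6.85 CPM, while the globin genes Hba-a1, Hbb-bt and Hbb-bs had log2 differences of -0.29, -0.46 and -2.16 and were not called. Of 3 mast cell and basophil markers Prss34 rose, by 3.79 on the log2 scale, and of 2 megakaryocyte markers Itga2b rose, by 1.77. Ms4a1 and Ighm were not called, nor was any of the 2 T cell, 4 monocyte and 4 neutrophil markers tested. The part of cell composition in the difference was not tested.

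**Figure D3:**
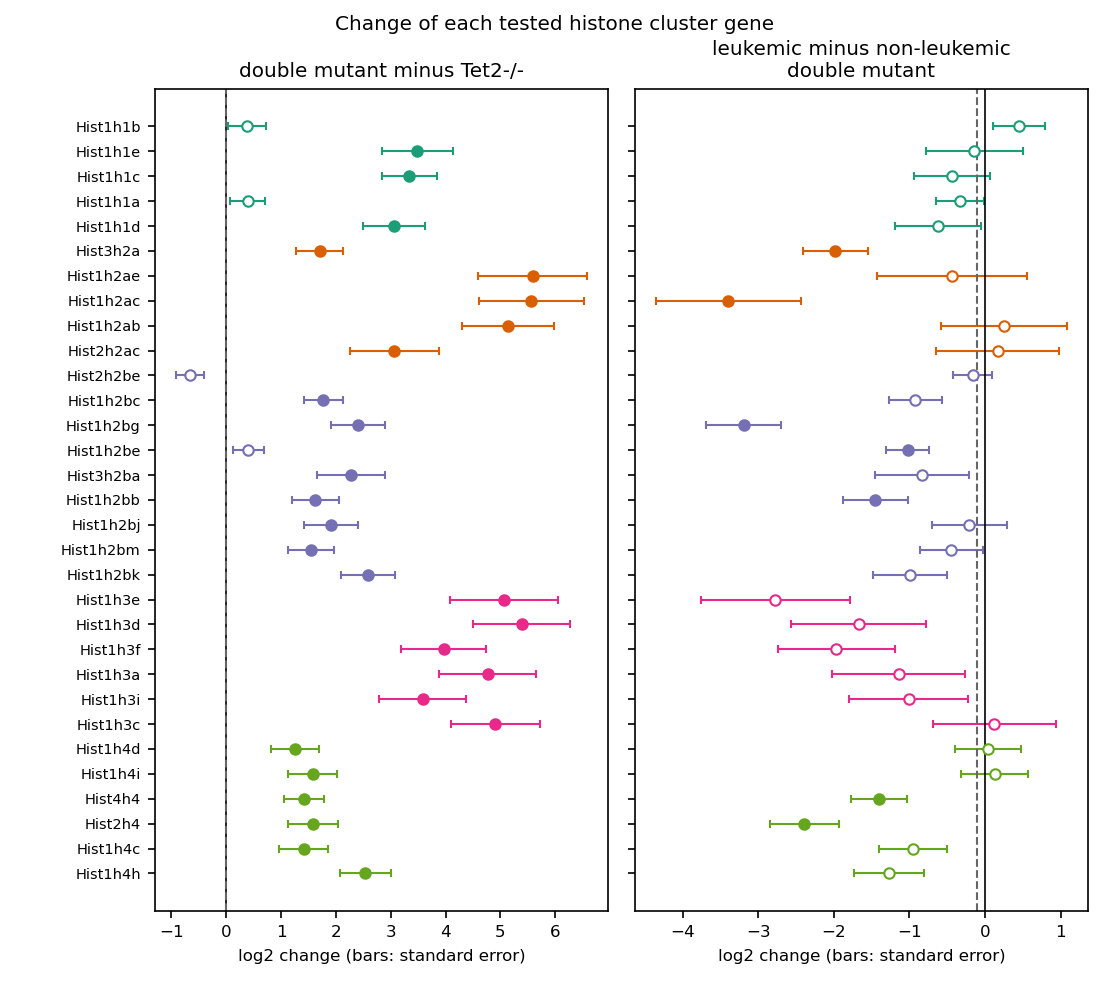
Log2 difference (x axis) of each of the 31 tested members between the double mutant and Tet2-/- (left) and between leukemic and non-leukemic cells of that genotype (right), with the standard error as a bar, coloured by class (H1 green, H2A orange, H2B violet, H3 pink, H4 light green), filled where the adjusted p was below 0.05, and with the median of all tested genes as a dashed line. On the left 27 points are filled, all to the right of 0, and on the right 7 are filled, all to the left of 0.

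Against WT, no member was called in Tet2-/-, Nras(G12D) or the double mutant, against 0.23%, 0% and 0.682% of all tested genes by limma. At an unadjusted p below 0.05 there were 19, 0 and 15 members, and 3304, 577 and 2119 genes. Values in Tet2-/- were below WT for 30 of the 31 genes, with a median log2 difference of -1.19. Hist1h1e had the values 19.9, 60.8 and 34.9 CPM in WT, so that Tet2-/- library 2, at 20.9 CPM, lay within the WT range and the other 2 far below it. Its log2 difference was -2.54 ± 0.64, with an adjusted p of 0.108. For Hist1h2ab (0.419, 2.31 and 1.10 CPM in WT) all 3 Tet2-/- libraries were below all WT libraries, with a log2 difference of -3.32 ± 0.84 and the same adjusted p. Without Tet2-/- library 2, 18 members were called lower in Tet2-/- than in WT, against 13.1% of genes, and limma's voom with sample quality weights, which gave that library a weight of 0.282, called 24 lower and 1 higher, against 25.5% and 24.3% of all genes.

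In the double mutant all 31 values were at or above those of WT, from 0.00077 for Hist2h2be to 2.93 for Hist1h2ac on the log2 scale, with a median of 1.06. Hist1h2bg was at 5.30, 7.75 and 8.64 CPM in WT, far under the double mutant values, and its log2 difference of 1.74 ± 0.49 had an adjusted p of 0.102. A fit of only these 2 groups called 5 members higher, Hist1h1c, Hist1h2ae, Hist1h2bg, Hist1h3d and Hist1h3e, against 2.23% of genes. In Nras(G12D) the libraries scattered. Hist1h2ac was at 2.66, 15.2 and 1.33 CPM and Hist1h3e at 3.17, 13.4 and 1.15 CPM in libraries 1 to 3. Library 2, which was high in both, also had a summed CPM of 1604 for 4 neutrophil markers (Ly6g, Camp, Ltf and S100a8), against 43.9 and 65.0 in the other 2 Nras(G12D) libraries. The part of other cells in this was not tested. Against Nras(G12D), the double mutant showed no called member, against 0.079% of genes, with 6 members and 1032 genes at an unadjusted p below 0.05 and a median log2 difference of 0.90. The interaction of the 2 mutations, a test of whether the double mutant departs from the sum of the single changes, called no member and no gene (0%). At an unadjusted p below 0.05 there were 23 members and 2924 genes, and the median over members was 2.09. Without Tet2-/- library 2 the interaction was called for 20 members, all above 0, against 10.8% of genes, and without double mutant library 1 for 2, a share near the 3.43% of genes.

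From the non-leukemic to the leukemic double mutant 7 members fell and none rose, against 15.2% of genes that fell and 9.04% that rose. The median log2 difference was -0.92 for the members and -0.10 for all tested genes. The 7 were Hist1h2ac and Hist3h2a of H2A, Hist1h2bg, Hist1h2be and Hist1h2bb of H2B, and Hist2h4 and Hist4h4 of H4. Hist1h2bb lies outside the rule for named genes and was added after its values had been seen. No H1 and no H3 gene was called. In 6 of the 7 the annotated transcript runs 100 or more bases past the stem-loop, the exception being Hist1h2bb, as it does in 17 of the 31 tested genes.

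Hist1h2bg fell from 24.4, 21.9 and 24.7 CPM to 1.37, 2.60 and 4.74 CPM, a log2 difference of -3.19 ± 0.49 with an adjusted p of 0.00206. All leukemic libraries were also below all WT libraries, and the difference from WT of -1.46 ± 0.49 was called (adjusted p of 0.0447). Hist2h4 fell from 7.30, 4.88 and 4.07 CPM to 0.412, 1.55 and 1.496 CPM, by 2.39 on the log2 scale with an SE of 0.45, and was also called lower than in WT (-1.73 ± 0.45, adjusted p of 0.0153). Hist1h2be was the third member called lower than in WT, at 3.02, 4.97 and 4.80 CPM against 8.69, 9.43 and 6.44 CPM. These 3 were the only members called against WT, against 13.9% of genes that fell there, and the set was not stable. Without WT library 1 none of them was called, without WT library 2 there was 1 call, and quantile normalization called none of them but 3 others higher (Hist2h2ac, Hist1h3c and Hist1h2ab), against 9.96% of genes.

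Hist3h2a went from 44.2, 31.1 and 19.2 CPM to 5.08, 6.49 and 13.03 CPM, a log2 difference of -1.98 ± 0.43. Hist4h4 went from 7.64, 4.55 and 6.81 CPM to 1.37, 2.54 and 3.65 CPM, and Hist1h2ac from 6.40, 16.01 and 25.6 CPM to 0.583, 1.55 and 2.37 CPM. In all 3 the groups did not overlap. In some members that were not called the groups did not overlap either, with lower values in leukemia, and in others they overlapped. Among those with overlap, Hist1h1e was at 67.0, 62.8 and 53.6 CPM in the leukemic libraries, with a log2 difference of -0.14 ± 0.64, and Hist1h4d at 52.4, 81.6 and 71.1 CPM, with 0.04 ± 0.43. Hist1h1b was at 52.2, 107 and 78.2 CPM, with 0.45 ± 0.35. These standard errors do not show that the levels were the same. Among H3 genes, Hist1h3e went from 8.92, 10.1 and 12.3 CPM to 0.515, 2.77 and 2.34 CPM without overlap, but its adjusted p was 0.0534. It was called with scaling by total counts (-3.01, adjusted p of 0.0314).

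The count of calls in the leukemic comparison depended on the scaling and on single libraries. It was 7 in the fit of all groups, 11 with scaling by total counts (21% of genes fell), 4 after quantile normalization (9.23%), 2 in a fit of the compared groups only (2.86%), 4 without double mutant library 1 (10.9%) and 3 without double mutant library 3 (7.39%). Beside it, Klf1 was at 14.1, 15.8 and 6.85 CPM in the non-leukemic and 31.1, 619.5 and 419 CPM in the leukemic double mutant libraries. The beta globin gene Hbb-bs was at 1.18, 1.78 and 0.0351 CPM against 21.1, 334 and 31.1 CPM. In both genes the groups did not overlap, and both rose, as did Hba-a1 and Hbb-bt, by 6.10 and 4.40 on the log2 scale. Ighm rose by 1.57, and Lyz2 of 4 monocyte markers fell by 1.74. The summed CPM of 6 LSK surface genes was 669 to 2619 in the leukemic and 2537 to 3242 in the non-leukemic double mutant, and 2 of the 6 fell. The part of these cell populations in the histone values was not tested, and fewer cells of a type and less RNA per cell cannot be told apart in bulk RNA.

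H2A and H2B genes often lie head to head, so that the start regions of a pair are shared. Within 400 bases of each other, 14 such pairs of 1 H2A and 1 H2B gene were found, and in 3 of them both genes were tested. Hist1h2ae (minus strand) and Hist1h2bg (plus strand) are the pair with the closest starts among these 3. The 179 bases between their RefSeq starts (GRCm38.p6, chr13:23571221-23571399, plus strand, 5′ to 3′) are shown because the 2 genes moved apart in leukemia. Capitals mark CCAAT on either strand (as CCAAT or ATTGG), the octamer ATTTGCAT and the TATA sequence TATAAA.
Hist1h2ae to Hist1h2bg: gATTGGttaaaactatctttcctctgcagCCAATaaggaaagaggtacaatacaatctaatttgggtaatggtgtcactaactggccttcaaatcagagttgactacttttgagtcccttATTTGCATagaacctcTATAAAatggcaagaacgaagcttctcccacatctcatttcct
The octamer and the TATA sequence lie on the plus strand, on the side of Hist1h2bg, at positions 121 to 128 and 137 to 142 of the 179 bases, and the 2 CCAAT matches at positions 2 to 6 and 30 to 34, on the side of Hist1h2ae. Over the 61 members with a promoter in RefSeq, the 250 bases before the start held CCAAT in 82% (34.5% of all 27025 promoters of that length), TATAAA in 47.5% (13% of all) and the octamer ATTTGCAT in 21.3% (1.61% of all), on either strand, each motif counted by itself also where matches overlap. The octamer was found in 41.2% of H2A and 37.5% of H2B promoters and in none of the 6 H1, 10 H3 and 12 H4 promoters, and CCAAT in 100% of H1, H2A and H2B, 80% of H3 and 25% of H4. Divergent partners share these windows in part, so they are not independent, and a match is only a match of letters.

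The ratio of Hist1h2ae to Hist1h2bg was 0.561, 1.44 and 0.610 in WT, and 0.0556, 0.468 and 0.109 in Tet2-/-. In Nras(G12D) it was 2.73, 4.40 and 0.316. The double mutant libraries gave 0.860, 1.97 and 1.46, and those with leukemia gave 6.93, 13.8 and 8.15. Every leukemic library was above every other library in this ratio. Hist1h2ae itself was at 9.51, 35.8 and 38.6 CPM in leukemia, a log2 difference of -0.44 ± 0.998 from the non-leukemic double mutant that was not called, while Hist1h2bg fell. In the pair Hist1h2ac and Hist1h2bc the H2A gene moved more. Its ratio to Hist1h2bc was 0.0161, 0.0537 and 0.0272 in Tet2-/-, and 0.195, 0.596 and 0.701 in the double mutant. In leukemia it was 0.0391, 0.0855 and 0.135. It ran from 0.0413 to 0.170 in WT and from 0.06825 to 0.461 in Nras(G12D). In the Hist2 pair, Hist2h2ac was 0.00132 to 0.0178 of Hist2h2be in Tet2-/- and 0.0354 to 0.119 of it in leukemia. The other groups overlapped leukemia, at 0.00909 to 0.0571 in WT, 0.0154 to 0.0682 in Nras(G12D) and 0.04085 to 0.08625 in the double mutant. The ratios are descriptions of CPM, not corrected for length, and the difference between partners was not tested.

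**Figure D4:**
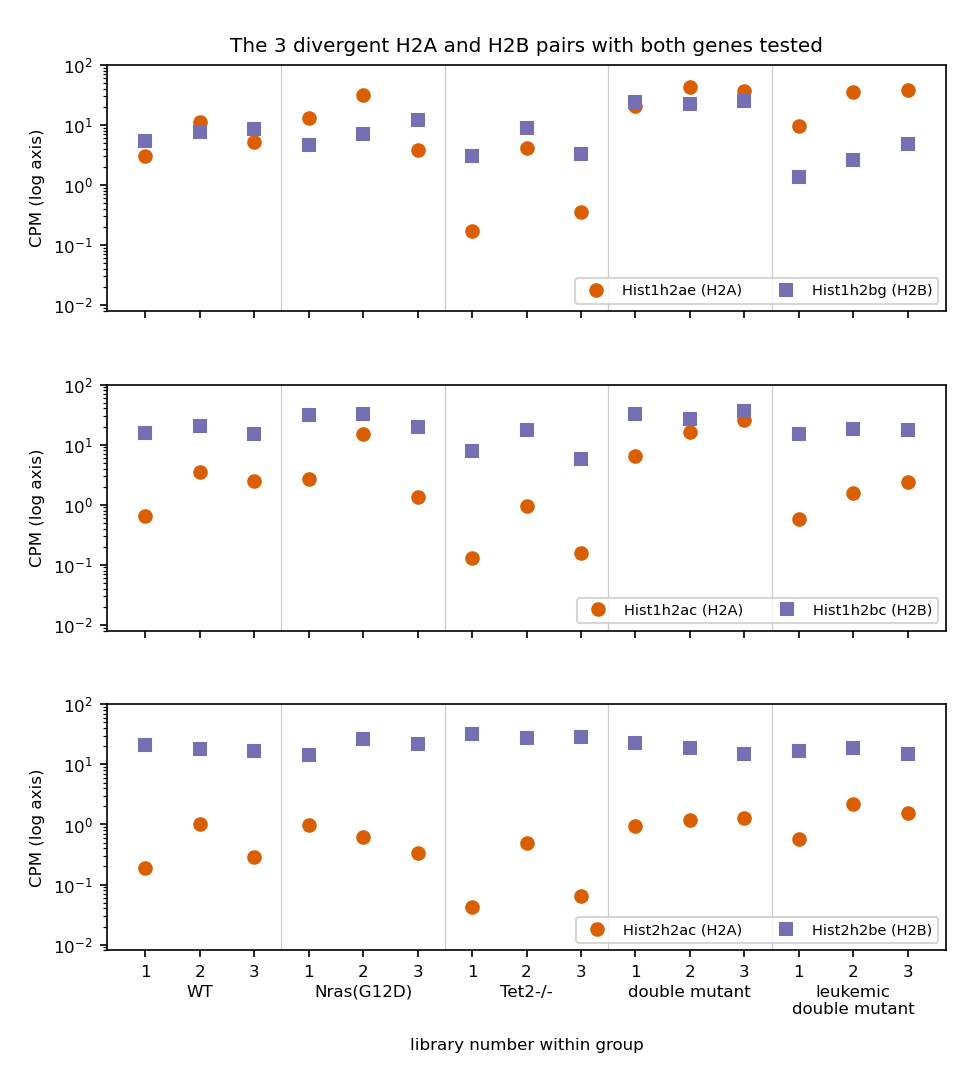
CPM on a log axis of the H2A gene (circles) and the H2B gene (squares) of the 3 head-to-head pairs with both genes tested, by group and library number. In the top panel Hist1h2ae and Hist1h2bg are close in the double mutant, Hist1h2ae is below in Tet2-/- and Hist1h2bg is below in all 3 leukemic libraries.

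The other histone genes and the genes that serve histone supply are given by list, and no test compared the lists with the cluster genes. As background for the counts, 20.1% of all tested genes rose and 8.57% fell from Tet2-/- to the double mutant, and 9.04% rose and 15.2% fell in leukemia. Among 11 variant and replacement histone genes, most of which are known to make polyadenylated mRNA outside S phase, 8 rose from Tet2-/- to the double mutant and none fell, with a median log2 difference of 1.90. H2afx (H2A.X, the variant phosphorylated at DNA breaks, which is known to make both a stem-loop and a polyadenylated mRNA) was at 2.68, 33.9 and 6.67 CPM in Tet2-/- and 118, 312 and 240 CPM in the double mutant, a log2 difference of 4.60 ± 0.81. H2afj rose by 3.42, H1f0 (H1.0, the linker histone of resting cells) by 2.64 and H2afv by 2.61 on the log2 scale. H3f3a, which encodes the replacement histone of the H3 class, was at 86.1 to 137 CPM in all 15 libraries, with a log2 difference of 0.05 ± 0.19, while H3f3b, which encodes the same protein, rose by 0.70 ± 0.185 (adjusted p of 0.01495 by limma). The median log2 CPM of the variant list was 4.40 and 4.70 in Tet2-/- libraries 1 and 3 and 6.25 in library 2, so the same 2 libraries were low as for the cluster genes. From the non-leukemic to the leukemic double mutant 1 of the 11 fell and none rose.

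Of 30 genes of S phase, none was called between Tet2-/- and WT, and the median log2 CPM of the list was 7.28, 7.31 and 7.28 in the Tet2-/- libraries, as high as or higher than the 7.04, 7.15 and 6.95 of WT. Single genes of the list differed from this median. Rrm2 was at 60.7, 202 and 65.0 CPM in Tet2-/- and at 160.5, 249 and 225 CPM in WT. Cdt1 was at 9.6, 39.7 and 10.2 CPM against 30.2, 92.0 and 65.4 CPM. Rrm1 went the other way, at 804, 642 and 822 CPM against 558, 637 and 646 CPM, as did Gins2 in Tet2-/- libraries 1 and 3. From Tet2-/- to the double mutant 5 rose and 5 fell, with a median log2 difference of -0.39. Cdt1, which licenses replication origins, rose by 2.56, and Gins2 of the replicative helicase fell by 0.57 on the log2 scale. From the non-leukemic to the leukemic double mutant 15 of the 30 rose and none fell, with a median of 0.72, in the comparison in which 7 histone cluster genes fell. Rrm2, the small subunit of ribonucleotide reductase, went from 179, 190 and 133 CPM to 388, 1269 and 832 CPM, and Rrm1 from 486, 504 and 349 CPM to 813, 1813 and 1069 CPM. Of 20 histone chaperone genes 2 rose from Tet2-/- to the double mutant (Asf1a and Chaf1a, by 2.46 and 2.41 on the log2 scale, the list's median being -0.34) and 7 rose in leukemia, with a median of 0.64, among them Nasp and Npm1, both by 1.08.

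**Figure D5:**
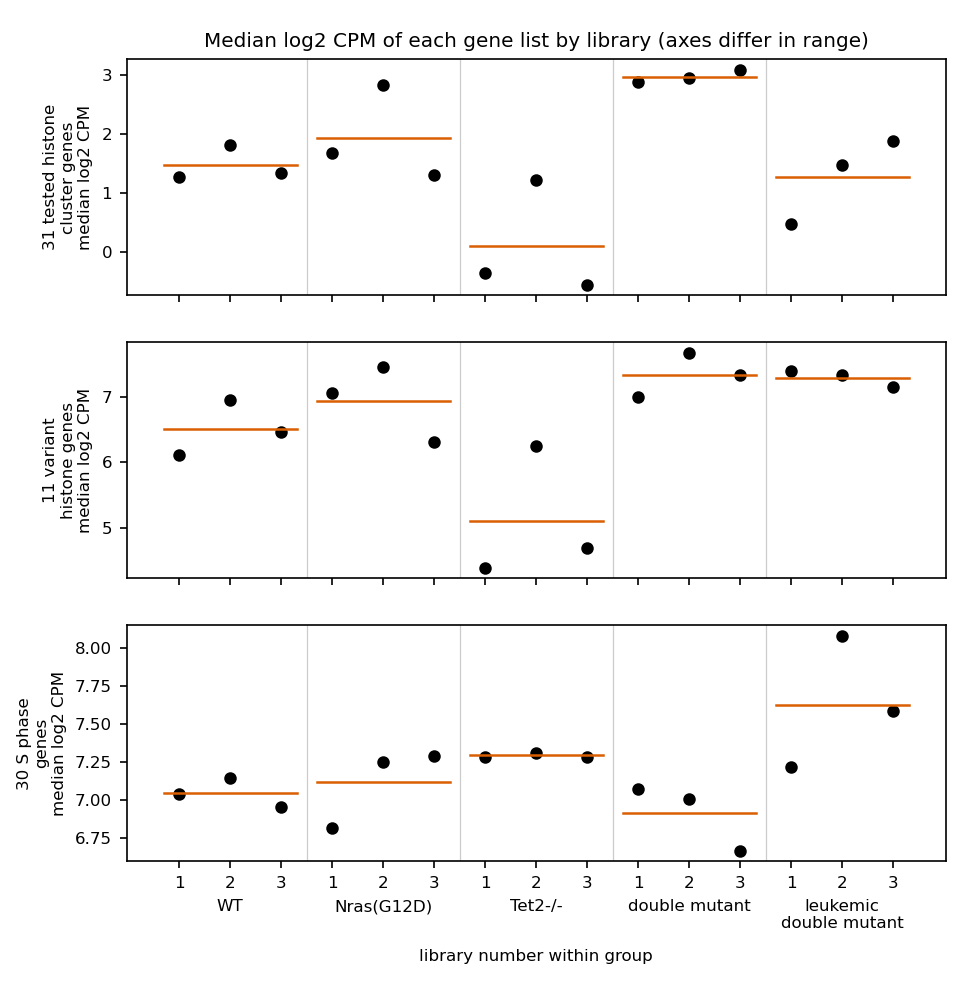
Median log2 CPM over the 31 tested histone cluster genes, 11 variant histone genes and 30 S phase genes (y axes of different range) in each library (points), with the group mean as a line. The upper 2 panels are lowest in Tet2-/- libraries 1 and 3, where the S phase median is 7.28, and in the leukemic libraries 2 and 3 the S phase median is above that of all other groups.

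Of 24 genes for the transcription, cutting and decay of histone mRNA 7 rose and 3 fell from Tet2-/- to the double mutant, with a median log2 difference of 0.09, and 5 rose and 1 fell in leukemia, with a median of 0.35. Slbp, the stem-loop binding protein, was at 129, 291 and 136 CPM in the Tet2-/- libraries and 271, 311 and 287 CPM in WT, so that the same 2 libraries were low. Its log2 difference between double mutant and Tet2-/- was 0.68 ± 0.31 (adjusted p of 0.104). Npat was higher in those libraries, at 195, 129 and 182 CPM against 108, 112 and 124 CPM in WT, and fell by 0.98 to the double mutant (adjusted p of 0.0172). Upf1 and Eri1, which act in the decay of histone mRNA, rose by 3.99 and 2.31, and Ybx1 rose by 1.86. Ccne1, whose product cyclin E activates NPAT with its kinase partner, had 5.81, 18.7 and 11.5 CPM in non-leukemic and 23.8, 141 and 129 CPM in leukemic double mutant libraries, a log2 difference of 2.81 ± 0.56 (adjusted p of 0.00531).

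The mRNA selection was looked at through RNAs without a poly(A) tail. Of 351 small nuclear, small nucleolar and other such RNAs with a row, 22 were tested, and 6 rose and none fell from Tet2-/- to the double mutant, with a median log2 difference of 0.45. Snora7a and Snord55 had 0.127, 0.0906 and 0.0638 CPM and 0, 0 and 0.0319 CPM in Tet2-/-, and 0.380, 1.84 and 2.001 CPM and 0.311, 1.15 and 1.44 CPM in the double mutant. Snord55 would not have been tested without the double mutant libraries, nor without the leukemic ones, so that its direction was partly set by the filter. Snora28 rose by 2.11. In leukemia 2 of the 22 fell, Snora31 among them by 2.44. Many of these RNAs lie in introns, and how much of either set came from unselected RNA was not tested. Of the 5 cluster genes with well known polyadenylated forms (Hist1h1c, Hist1h2bc, Hist2h2be, Hist3h2a and Hist4h4) 4 rose from Tet2-/- to the double mutant, with a median log2 difference of 1.70, and 2 fell in leukemia, with a median of -0.92.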

How the data were processed

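RNA-seq values were available for 44827 genes in 15 libraries. The submitters' processing notes name bcl2fastq, the aligner STAR (2.4.0f1), edgeR (3.14.0) and limma (3.28.21). They list 2 builds, NCBIM37 and mm10, with no role for either. How reads were counted, with which annotation and strand setting, is not given in the sources used here. The deposited values are log2 CPM, with 0.5 added to each count. Whole counts were recovered within 1e-06 for every value and gave the CPM printed here. The 13927 genes that reached 1 CPM in 3 or more libraries were fitted with limma 3.58.1 in R 4.3.3 over all 5 groups, with an intensity trend and Benjamini-Hochberg adjustment over all tested genes, for 7 pairs of groups, the interaction and an F test. The fit was tested on simulated data. Fold changes of low genes depend on the added count. Genes were named by rule: the 4 tested members of highest mean log2 value per class, up to 5 called members per direction and comparison, all tested Hist2, Hist3 and Hist4 members, and up to 4 genes per list. The members and lists were chosen with earlier results of these data known. Alternatives covered the filter, the added count, scaling, GC content and length, voom with quality weights, the groups fitted, a replicate block and leaving out each library. Some marker genes are not reported here.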

Additional observations from a re-analysis of the deposited data

How the results depend on the processing

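Of 29 called results of named members under 745 alternatives, 649 kept direction and call, 96 lost the call and 0 reversed. The 27 calls between the double mutant and Tet2-/- ranged from 16 to 28 when 1 library was left out, and were 0 without both Tet2-/- libraries 1 and 3, a choice made after seeing the data that leaves 1 library assumed to vary like the other groups. The 0 calls of Tet2-/- against WT became 25 with voom and quality weights and 0 to 18 with 1 library left out. Voom called 24.3% of all genes higher and 25.5% lower in that comparison. The share of all genes is not given here for the other voom fits, so the member counts below describe stability only. The 0 calls of the double mutant against WT became 21 with voom and 5 with only the compared groups. The 3 calls of leukemia against WT (all lower) became 12 with voom (9 higher, 3 lower), 1 (higher, Hist1h1c) with only the compared groups and 0 to 6 with 1 library left out. The 7 calls of leukemia against the double mutant became 11 with total-count scaling, 4 with quantile normalization, 14 with voom, 2 with only the compared groups and 3 to 10 with 1 library left out. The 0 calls of the interaction became 26 with voom and 0 to 20 with 1 library left out. Ratios of summed CPM became, from the median log2 value over tested members, 0.388 from 0.646 (Tet2-/- to WT), 2.81 from 1.86 (double mutant to WT), 7.23 from 2.88 (double mutant to Tet2-/-), 0.31 from 0.76 (leukemic to double mutant) and, reversed, 0.869 from 1.41 (leukemic to WT). The cause of these changes was not tested.

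Libraries of the same number were treated as unpaired in the main fit. Of 30 pairs of the same number 12 correlated above 0.1 (-0.346 to 0.294), and 7 of 15 libraries matched their own number best. These values do not settle whether the numbers mark pairs. With the replicate block the calls were 26 for the double mutant against Tet2-/-, 9 for leukemia against the double mutant, 7 for Tet2-/- against WT and 7 for leukemia against WT (4 higher, 3 lower). With the GC content and length correction beside the block, Tet2-/- against WT gave 5 and leukemia against WT 7. The share of all genes called with the block is not given here, so these member counts describe stability only. The planned edgeR test was not run, since the deposited unit is log2.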
